A study of Mus musculus with 33 samples.

Results

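The genes described here are 8 markers of macrophages and of the complement protein that macrophages make: C1qa, C1qb, C1qc, Csf1r, Cd68, Tyrobp, Ptprc and Cx3cr1. They were chosen by name, as the rows carrying those symbols, with earlier results of these data known. All 8 were among the 14613 genes listed for whole main olfactory epithelium (MOE), and 6 were among the 14744 genes with values for sorted mature olfactory sensory neurons (mOSN). Tyrobp and Ptprc were not listed in the sorted neurons.

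Macrophages of the olfactory epithelium clear dying sensory neurons, which are replaced throughout life, and take part in the repair that follows injury. C1q, built from the A, B and C chains encoded by C1qa, C1qb and C1qc, is the recognition subunit of the classical complement pathway. It binds antibody complexes, apoptotic cells and, in the brain, synapses, and tissue macrophages and microglia are its main source. Csf1r is the receptor through which Csf1 and Il34 keep macrophages alive.

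The study asked how loss of Dnmt3a, a de novo DNA methyltransferase, affects olfactory sensory neurons and their transcriptional response to odor. All mice were 3 weeks old and were wild type (WT, Dnmt3a +/+), heterozygous null (Het, Dnmt3a +/-) or homozygous null (KO, Dnmt3a -/-). The MOE was taken, 1 library per genotype and treatment, after 60 min of exposure to 80 µL of water or of amyl acetate, acetophenone and octanal in equal parts (odor), which followed 10 min in the cage. The mOSN, isolated by fluorescence-activated sorting from mice with no odor treatment recorded, gave 2 libraries per genotype that were deposited as 1 value. The labels do not say which exons were removed, whether the deletion was limited to a cell type, which reporter guided the sort, or whether animals were pooled.

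Values are normalized reads per kilobase of the gene length the authors used, and are called levels below. Reads recovered from the MOE levels totalled 9448925 to 17713049 per library. The fewest reads behind any MOE level of a member were 24, for Tyrobp in KO odor, and the most were 1245, for Csf1r in Het odor. Dnmt3a itself, still counted in KO, had MOE levels of 84.4 and 89.0 for WT (water and odor), 50.3 and 66.6 for Het, and 56.1 and 48.3 for KO. Since a whole tissue was measured, fewer macrophages and less RNA per macrophage cannot be told apart. With 1 library per group, the tests draw on the spread among these 6 libraries alone, which may be technical.

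The upstream sequences of 3 members are shown because C1qb and C1qc lie side by side and had like profiles over the MOE libraries, whereas Cd68 belonged to the set of members that differed most in the odor response of KO. Each run is the 250 bases before the RefSeq start in GRCm38.p6, 5′ to 3′ on the gene's own minus strand: chr4:136886201-136886450 for C1qb, chr4:136892915-136893164 for C1qc and chr11:69666171-69666420 for Cd68. Capitals mark GAGGAA or its complement on the other strand, TTCCTC, the core letters of the sites bound by PU.1, the lineage factor of macrophages encoded by Spi1.
C1qb: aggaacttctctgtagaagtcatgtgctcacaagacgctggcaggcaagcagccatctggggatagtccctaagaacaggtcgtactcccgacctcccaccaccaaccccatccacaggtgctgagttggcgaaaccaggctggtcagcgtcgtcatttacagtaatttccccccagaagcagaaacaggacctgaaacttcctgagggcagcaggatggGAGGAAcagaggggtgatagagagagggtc
C1qc: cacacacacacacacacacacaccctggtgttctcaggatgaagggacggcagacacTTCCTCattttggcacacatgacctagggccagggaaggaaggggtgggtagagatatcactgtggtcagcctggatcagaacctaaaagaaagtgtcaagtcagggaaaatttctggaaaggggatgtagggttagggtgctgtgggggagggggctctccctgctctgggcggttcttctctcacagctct
Cd68: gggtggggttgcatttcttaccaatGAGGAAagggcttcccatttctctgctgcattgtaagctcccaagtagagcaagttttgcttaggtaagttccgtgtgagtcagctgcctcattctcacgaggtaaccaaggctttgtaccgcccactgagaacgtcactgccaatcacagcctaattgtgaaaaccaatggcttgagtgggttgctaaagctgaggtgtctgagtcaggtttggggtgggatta

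The match begins 30 bases before the start in C1qb, 193 before it in C1qc, where it reads on the opposite strand, and 225 before it in Cd68. One of the listed Ptprc starts had a match 158 bases upstream, and the Cx3cr1 window had none. These letters are common, being present on either strand in 23.3% of 32851 promoter windows of the same length, so a match is a description of the sequence and not a bound site. The longer AP-1 site TGACTCA (or TGAGTCA on the other strand), which 4.46% of windows hold, was found 2 times in the Cd68 window, 149 and 24 bases before the start, and not in those of C1qb, C1qc, Ptprc or Cx3cr1. C1qa and Tyrobp were not in the promoter table, and the Csf1r promoter was not used here. In the reference order of protein-coding genes on chromosome 4, C1qb, C1qc and C1qa follow one another without another such gene between them, flanked by Ephb2 and Epha8.

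In whole epithelium the levels of C1qa, which encodes the A chain, were 130 with water and 182 with odor for WT, 246 and 311 for Het, and 184 and 171 for KO. C1qb, for the B chain, was at 38.5 and 79.6 for WT, 152 and 161 for Het, and 90.1 and 95.9 for KO. C1qc, for the C chain, was at 12.8 and 16.0 for WT, 42.0 and 52.0 for Het, and 26.6 and 21.4 for KO. For all 3 chains the WT water library was the lowest of the 6 and the Het odor library the highest, and both Het libraries were above the other 4. Together with Ptprc that made 4 of 8 members lowest in WT water, beside 17.2% of all genes.

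The receptor Csf1r had levels of 27.5 and 31.0 for WT (water and odor), 30.8 and 71.8 for Het, and 38.6 and 16.7 for KO. Among its libraries, Het odor stood far above, and KO odor below, the 4 others. Cd68, a heavily glycosylated protein of macrophage lysosomes and endosomes, was at 77.4 and 80.8 for WT, 119.6 and 171 for Het, and 119.2 and 43.3 for KO. Het water and KO water were nearly equal for Cd68, while their odor libraries lay at the opposite ends of the range.

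Tyrobp encodes DAP12, the adaptor with an activation motif that passes on signals from Trem2 and other receptors of myeloid cells. Its levels were 87.7 and 90.8 for WT, 104 and 123 for Het, and 79.0 and 47.8 for KO, so that both KO libraries were below all 4 others. Cx3cr1, the receptor for fractalkine (Cx3cl1) that marks microglia and many tissue macrophages, was at 21.9 and 14.5 for WT, 35.0 and 51.5 for Het, and 33.8 and 28.6 for KO. Both WT libraries were lowest for Cx3cr1.

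Ptprc encodes CD45, the tyrosine phosphatase carried by all leukocytes. It was at 7.47 and 9.64 for WT, 8.98 and 8.59 for Het, and 10.3 and 7.60 for KO, with the highest level 1.38 times the lowest. The other members spanned from 2.40-fold, for C1qa, to 4.30-fold, for Csf1r. The pan-leukocyte gene thus had the narrowest range of the 8, and its genotypes overlapped.

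**Figure D1:**
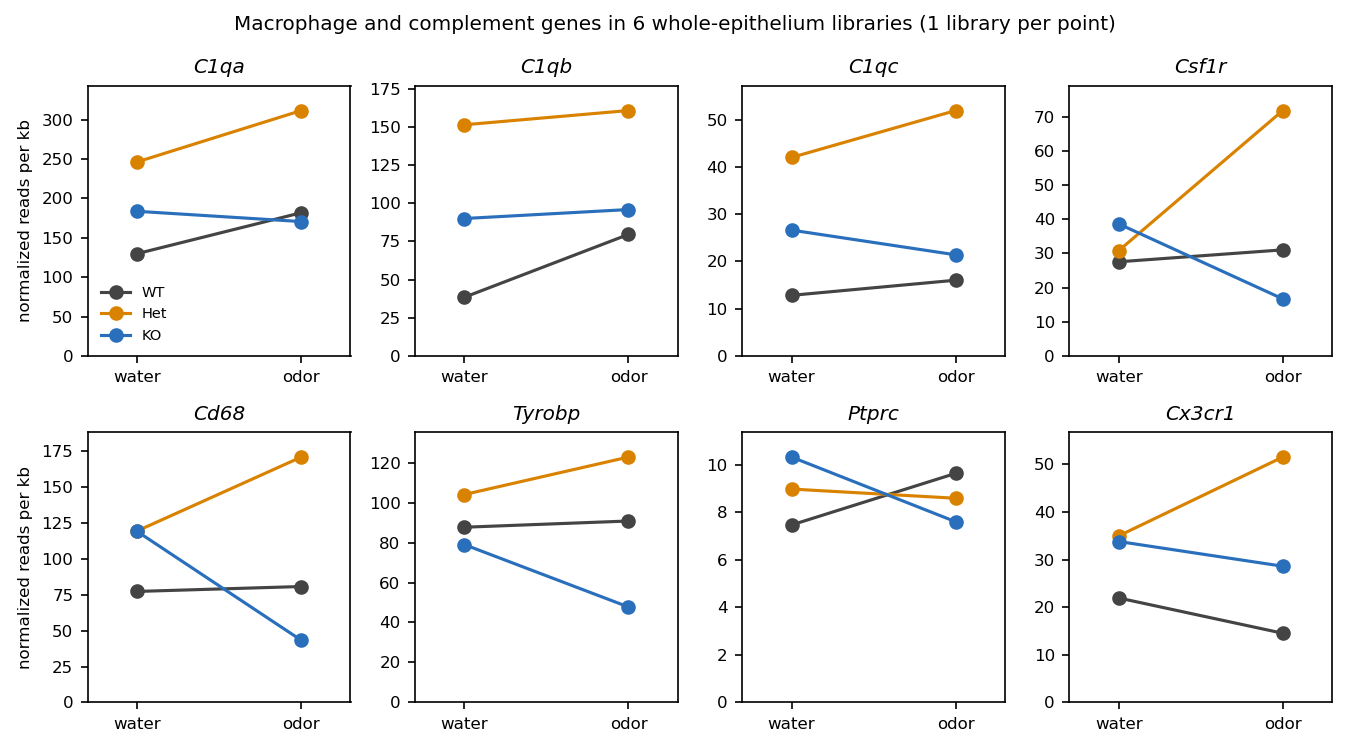
Level of each member (normalized reads per kb, linear axis from 0) in the 6 MOE libraries, with water at left and odor at right and a line joining the libraries of 1 genotype (WT grey, Het orange, KO blue). Each point is 1 library. Het is uppermost for C1qa, C1qb and C1qc with both treatments, and KO is lower with odor than with water for Csf1r, Cd68 and Tyrobp.

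Over the 6 libraries some members had like profiles, and the sets named here were formed after their values were seen. Pearson's r on the log2 scale was 0.93 to 0.95 among C1qa, C1qb and C1qc, and 0.84 to 0.93 among Csf1r, Cd68 and Tyrobp. Between these sets it ranged from 0.30 (C1qb with Tyrobp) to 0.71 (C1qa with Cd68). Cx3cr1 was nearest to C1qc (0.87), and Ptprc was at 0.52 or less with every other member. These are descriptions over 6 points that share libraries, genotypes and depth.

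The C1q chains assemble in equal numbers, and the reads of C1qb and C1qc were also set against those of C1qa within each library. These reads were not divided by gene length (1040 bases for C1qa, 1088 for C1qb and 2149 for C1qc). The ratios can thus be compared between libraries but do not give the proportions of the chains. C1qb had 0.310 reads per C1qa read in WT water (44 against 142 reads, exact 95% interval 0.216 to 0.437) and 0.458 in WT odor (0.352 to 0.593). In Het the ratio was 0.644 with water (0.530 to 0.780) and 0.540 with odor (0.459 to 0.635), and in KO it was 0.513 (0.385 to 0.680) and 0.589 (0.451 to 0.765). WT water was the lowest, and its interval, which covers counting error alone, did not overlap those of the Het libraries or of KO odor. C1qc had 0.204 and 0.182 reads per C1qa read in WT, 0.353 and 0.345 for Het, and 0.300 and 0.259 for KO. Both Het ratios were again above both WT ratios. The exact interval of WT water (0.132 to 0.306) overlapped those of Het water (0.277 to 0.446) and Het odor (0.284 to 0.416), however. That of WT odor (0.123 to 0.262) overlapped neither.

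The heterozygous libraries had higher levels of most macrophage and complement genes than the WT libraries, though none passed the test, with C1qc, C1qb and Cx3cr1 furthest apart. The fitted log2 difference, Het minus WT with treatment as a block, was 1.67 ± 0.31 (SE) for C1qc, 1.49 ± 0.30 for C1qb, 1.23 ± 0.35 for Cx3cr1 and 0.85 ± 0.21 for C1qa. None of the 8 passed limma's test (two-sided, Benjamini-Hochberg over 14602 genes), where the smallest adjusted p was 0.706 (0.363 for C1qc over the alternatives), and the voom test on recovered reads called 0 as well. No gene of all those tested passed either (0% called). Unadjusted limma p was below 0.05 for these 4 members, against 2.71% of all genes (and 3.99% for lower levels, with no member): 0.00191 for C1qc, 0.00285 for C1qb, 0.00773 for C1qa and 0.0147 for Cx3cr1.

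The other 4 differences between Het and WT were 0.85 ± 0.47 for Cd68, 0.68 ± 0.56 for Csf1r, 0.34 ± 0.28 for Tyrobp and 0.05 ± 0.39 for Ptprc. All 8 fitted differences were above 0 (52.6% of all genes), with a median of 0.85 beside 0.02 for all genes. For 6 members, all but Csf1r and Ptprc, both Het libraries were above both WT libraries, as they were for 19% of genes. The same 6 were higher in both Het libraries than in all 4 others, which held for 11.5% of genes. Het odor was the highest library for 7 of 8, with Ptprc the exception, against 30.6% of genes. The median was 0.50 without the Het odor library and 1.35 without the Het water library. Without Het odor the Csf1r difference was -0.18 ± 0.56.

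Other genes of the same pathways were also at higher levels in Het. Of 20 ligands, receptors and signalling partners of the members that were tested, 20 had a fitted difference above 0 (median 0.52), and of 28 other macrophage genes 26 did (median 0.48), with Trem2 and Spi1 in both lists. Over all genes 52.6% had a difference above 0, with a median of 0.02. Cx3cl1, the membrane-bound ligand of Cx3cr1, had levels of 73.2 and 74.7 for WT (water and odor), 132 and 258 for Het, and 85.0 and 82.6 for KO, a difference between Het and WT of 1.31 ± 0.30 (unadjusted limma p of 0.00513, adjusted 0.706). Both Het libraries were thus above the other 4 for the ligand as for the receptor, which held for 11.5% of all genes. Plcg2, a phospholipase of DAP12 signalling, differed by 0.73 ± 0.25, and among the macrophage genes Cybb, the catalytic subunit of the phagocyte oxidase, differed by 0.65 ± 0.23 and the lysosomal protease Ctss by 0.56 ± 0.21.

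The growth factors that act on Csf1r were at low levels. Csf1 was at 10.9 and 14.2 for WT, 15.5 and 24.5 for Het, and 15.7 and 15.7 for KO, and Il34 ranged from 1.57 to 6.25. Trem2, a lipid receptor that signals through DAP12, was at 2.3 and 0.792 for WT, 4.00 and 5.09 for Het, and 5.80 and 3.61 for KO. Spi1 was at 18.8 and 21.6 for WT, 23.3 and 34.2 for Het, and 32.6 and 17.8 for KO. Csf1 and Trem2 had both Het libraries and both KO libraries above both WT libraries, whereas for Spi1 this held for Het but not for KO. Over all genes it held for 19% in Het and for 12.4% in KO.

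The rest of the complement system did not share the C1q pattern throughout: 13 of 21 tested components and regulators were higher in Het and 8 lower (median 0.30). The C1 protease gene C1s, whose product is activated by C1ra once C1q has bound, differed by 0.94 ± 0.40 between Het and WT, and C1ra by 0.52 ± 0.38. C4b, the next substrate of the pathway, differed by 0.77 ± 0.47, and Cd55, a cell surface brake on complement, by -0.69 ± 0.24 (limma adjusted p = 0.706). Cd55 was at higher levels in sorted neurons (1102 in WT, 1201 in Het and 1258 in KO) than in MOE with water (394, 325 and 423). The part of the neurons in its MOE difference was not tested.

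Markers of other cells also differed between the same libraries. All 12 mature neuron markers were lower in Het than in WT (median -1.05). Each had an unadjusted limma p below 0.05, as did 3.99% of all genes in that direction. None of the 12 passed limma's test (smallest adjusted p = 0.706), and 0% of all genes did. The summed level of the neuron markers was 10805 and 6288 for Het (water and odor), beside 25116 and 18816 for WT and 21276 and 28043 for KO. Omp, the defining marker of these neurons, was at 1582 and 249 for Het and at 5962 and 2717 for WT. Over all genes 52.6% were higher in Het, with a median of 0.02. Neutrophil markers were higher for 11 of 12 (median 0.81), with a summed level of 4409 and 7550 for Het beside 2133 and 5877 for WT. Osteoclast markers were higher for 7 of 7 (median 0.42), endothelial markers for 8 of 8 (median 0.30) and B cell markers for 5 of 7 (median 0.63), whereas T cell markers were split 3 to 3. Erythroid markers were higher for 6 of 6 (median 0.37), and sustentacular cell markers were split 5 to 3 (median 0.11). The part of these cells in the member differences was not tested. Of the defining T cell markers, Cd3d, Cd3e and Cd8a were not listed in MOE, nor was the B cell marker Ms4a1.

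In homozygous null epithelium the members did not share a direction against WT. C1qb (0.74 ± 0.30), Cx3cr1 (0.78 ± 0.35) and C1qc (0.72 ± 0.31) had both KO libraries above both WT libraries, a count of 3 of 8 beside 12.4% of all genes. Tyrobp (-0.53 ± 0.28) was the one member with both below (13.3% of genes). The other differences, KO minus WT, were 0.20 ± 0.21 for C1qa, 0.06 ± 0.39 for Ptprc, -0.14 ± 0.47 for Cd68 and -0.20 ± 0.56 for Csf1r. No member passed limma's test (adjusted p = 1.00 for each), and 0% of all genes did. Only C1qb was below an unadjusted limma p of 0.05, at 0.0483, where 1.27% of genes were called higher and 0.966% lower, and voom called none. The C1qb difference was 0.27 without the WT water library and 1.22 without the WT odor library. Of the 8 differences 5 were above 0, as were 48.5% of all genes.

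The odor libraries and the water libraries gave different pictures of KO. With water alone the difference from WT was 0.62 for Cd68, 0.48 for Csf1r and 0.50 for C1qa, and with odor alone it was -0.89, -0.88 and -0.09, each from 1 library against 1. The median over the members was 0.13 (all genes -0.01), 0.56 with water alone and -0.21 with odor alone, and it was 0.74 once the KO odor library was left out.

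**Figure D2:**
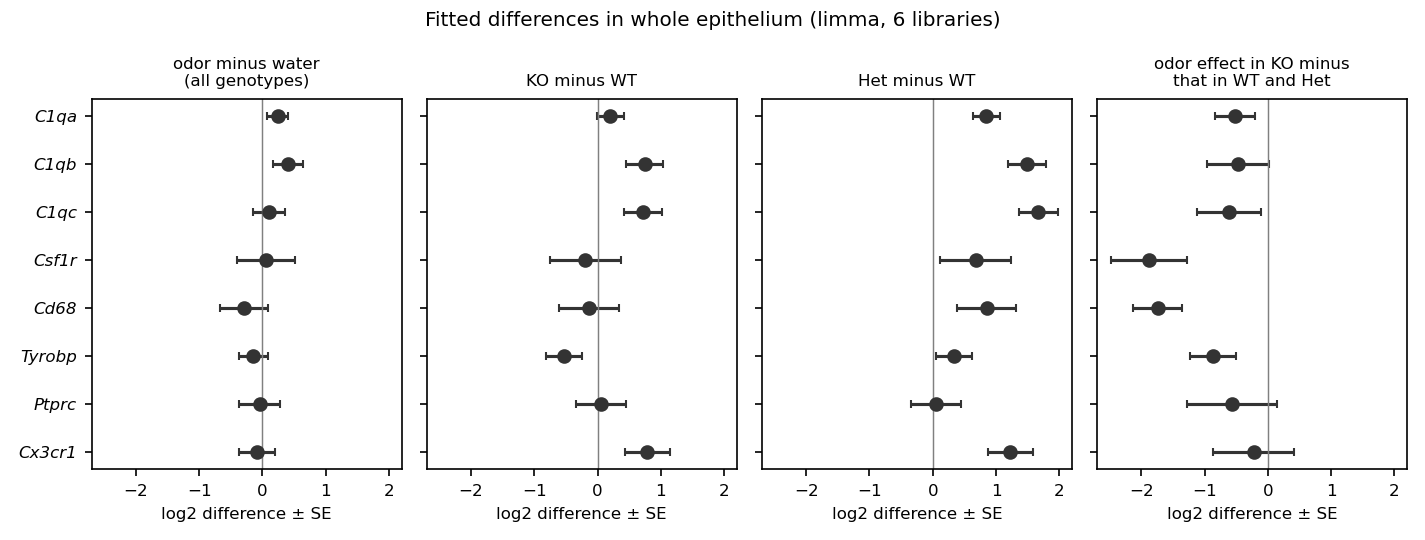
Fitted log2 difference (point) and its standard error (bar) of each member in 4 comparisons of the 6 MOE libraries, with a line at 0. In the Het panel all 8 points are above 0, up to 1.67 for C1qc, and in the rightmost panel all 8 are below 0, with Csf1r at -1.88 and Cd68 at -1.74.

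Odor exposure had no common direction over the 3 genotypes. The fitted difference, odor minus water with genotype as a block, was largest for C1qb (0.41 ± 0.24) and lowest for Cd68 (-0.29 ± 0.38), with 4 members above 0 and 4 below (50.1% and 49.9% of genes) and a median of 0.01, beside 0.00 for all genes. None passed limma's test (smallest adjusted p = 0.882, where 0.0137% of genes were called higher), none was below an unadjusted 0.05 (3.01% of genes higher and 1.86% lower), and voom called none. For no member were all 3 odor libraries above all 3 water libraries, which held for 7.77% of genes. C1qb alone was higher with odor in each genotype (15.6% of genes), by log2 1.04 in WT, 0.09 in Het and 0.09 in KO.

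The odor effect in KO stood furthest from the one common to WT and Het for Csf1r, Cd68 and Tyrobp. From water to odor, Cd68 differed by log2 0.06 in WT, 0.52 in Het and -1.45 in KO. Csf1r differed by 0.17, 1.21 and -1.19, and Tyrobp by 0.05, 0.24 and -0.72. In the KO pair, Cd68 had 267 reads with water and 110 with odor, although the odor library was the deeper of the pair, and Csf1r had 392 and 192. These 3 genes reached their lowest level in KO odor, a count of 3 of 8 beside 17.6% of all genes.

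The odor effect in KO minus the one common to WT and Het was -1.74 ± 0.39 for Cd68 (unadjusted limma p of 0.00503, adjusted 0.434, and 0.427 to 0.910 over the alternatives) and -1.88 ± 0.60 for Csf1r (0.0229 and 0.616). Tyrobp stood at -0.86 ± 0.36, C1qc at -0.62 ± 0.50, Ptprc at -0.56 ± 0.71, C1qa at -0.52 ± 0.32, C1qb at -0.47 ± 0.50 and Cx3cr1 at -0.22 ± 0.64. No member passed, 0% of all genes did, and voom called none. The 2 members below an unadjusted 0.05, Cd68 and Csf1r, compare with 3.36% of genes in that direction, and none was so in the other (3.75%). All 8 estimates were below 0 (50.3% of genes), with a median of -0.59 beside -0.0041 for all genes. For 5 members, C1qa, C1qc, Csf1r, Cd68 and Tyrobp, the level was higher with odor in WT and Het and lower in KO, which held for 14.9% of genes. With Ptprc added, 6 of 8 had their lowest odor effect in KO (35.5%). This estimate had 1 residual degree of freedom and rests on the single KO odor library.

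Other myeloid genes were split in that library. Over all genes 50.3% had an odor effect lower in KO (median -0.0041). On the list of 28 other macrophage genes 19 did (median -0.43). Tmem119 (-1.87 ± 0.45) was among them, though which cells of this tissue express it was not tested. In contrast Lyz2, the lysozyme of macrophages and neutrophils, was at 3626 in KO odor and between 844 and 1642 in the other 5 libraries. Of the 20 ligands and partners 18 were lower (median -0.64). The transcription factor gene Cebpa was at 68.1 with water and 40.1 with odor in KO, and Spi1 was at 32.6 and 17.8 there (-1.22 ± 0.53, limma adjusted p = 0.728). Cebpa is not a gene of myeloid cells alone here. In sorted neurons it was at 102 in WT, 109 in Het and 102 in KO, beside 36.1, 51.3 and 68.1 in MOE with water. Sorted and whole-tissue values were normalized separately. C3, the central complement component, was at 42.9 with water and 18.0 with odor in KO but at 13.3 and 48.6 for WT and 25.8 and 48.1 for Het, a difference in odor effect of log2 -2.59 ± 0.59 (limma adjusted p = 0.449). Clu, an inhibitor of the terminal complement complex, stood at -1.19 ± 0.34. Of the 21 complement genes 12 were lower and 9 higher, a split near that of all genes (50.3% lower).

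Csf1r, Cd68 and Tyrobp are also genes of osteoclasts, the bone-resorbing relatives of macrophages. Of the osteoclast markers, 6 of 7 had an odor effect lower in KO (median -1.95), beside 50.3% of all genes. Ctsk, the collagen-degrading protease of osteoclasts, was at 595 and 713 for WT, 717 and 1053 for Het, and 939 and 323 for KO, and Acp5, their acid phosphatase, at 385 and 363, 395 and 685, and 511 and 161. The summed level of the osteoclast list was 1740 for KO water and 622 for KO odor. Elsewhere it ranged from 1158 to 2126.

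The odor effect was lower in KO for most members of some further lists, though not of all. Over all genes it was lower for 50.3%. Of the dendritic cell and antigen presentation genes 5 of 7 were so (median -1.37), of the neutrophil markers 10 of 12 (median -1.12) and of the horizontal basal cell markers 6 of 6 (median -1.64). So were 5 of 6 T cell, 6 of 7 B cell, 6 of 6 erythroid and 6 of 8 sustentacular cell markers. Of the mature neuron markers only 1 of 12 was lower (median 0.69), of the ensheathing glia markers 3 of 7 (median 1.11) and of the endothelial markers 4 of 8 (median 0.10). The eosinophil granule gene Prg2 was at 80.5 in KO water and 9.38 in KO odor. The part of these cell types in the member differences was not tested.

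**Figure D3:**
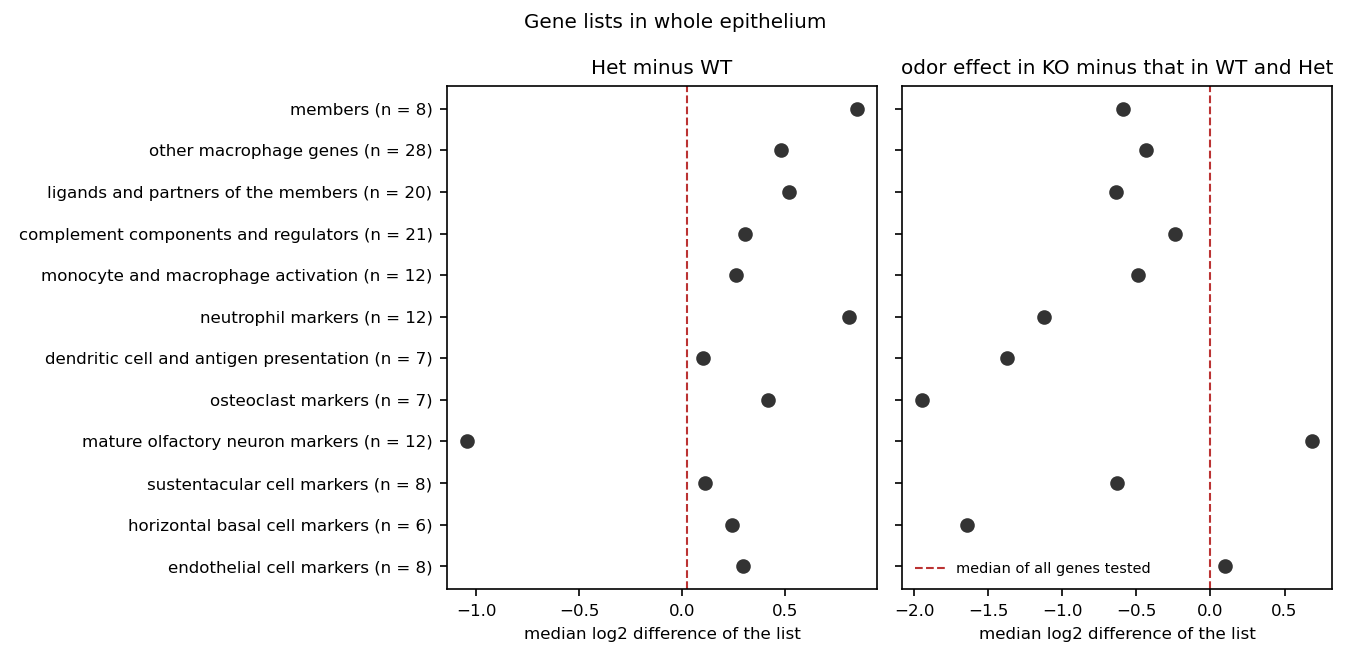
Median log2 difference of the members and of 11 other gene lists (number of tested genes in brackets) for Het minus WT (left) and for the odor effect in KO minus that in WT and Het (right). The dashed line is the median of all genes tested. The members lie at 0.85 and -0.59, mature neuron markers on the opposite side at -1.05 and 0.69, and osteoclast markers at 0.42 and -1.95.

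Genes with the profile most like that of the members were ranked over the 6 MOE libraries, by Pearson's r with the mean standardized log2 level of the members, among 13514 other genes with a mean level of 5 or more. The 8 nearest were Prtn3 (r = 0.996), a serine protease of neutrophil granules, Atp6v0d1 (0.994), a subunit of the proton pump of lysosomes, Grwd1 (0.994), Mrps36 (0.992), the zinc transporter gene Slc39a1 (0.992), Tmem97 (0.990), Ankfn1 (0.990) and Sh3bgrl3 (0.988). In all, 79 genes (0.585%) had an r of 0.95 or more. With 6 points that share genotype, treatment and depth, such values describe the order of the libraries and carry no test. The members' own r with their mean ran from 0.50 for Ptprc to 0.93 for C1qa.

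Sorted neurons had low levels of 6 members. As deposited means of 2 libraries, C1qa was at 16.7 in WT, 15.8 in Het and 5.89 in KO, C1qb at 5.51, 14.6 and 9.64, and C1qc at 3.57, 13.0 and 9.58. Csf1r was at 2.3, 2.2 and 7.5, Cd68 at 10.3, 10.7 and 11.9, and Cx3cr1 at 4.51, 5.40 and 13.8. These levels were a median of 13.8% of the MOE water level in WT, 9.30% in Het and 15.1% in KO, where the median of 13369 genes in both tables was 100.0%, 97.8% and 93.9%. The tables were normalized separately, so these shares are set side by side without a test.

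By the same measure mature neuron markers were at 409% in WT, 828% in Het and 280% in KO, and sustentacular (supporting) cell markers at 2.35%, 2.73% and 4.65%. The markers of the labelled cell type were thus at higher levels in the sorted cells than in MOE, and Omp was at 16661 in WT, 10449 in Het and 7612 in KO. The members lay between the neuron and supporting cell lists. The 6 neutrophil genes in both tables were at 11.4%, 8.71% and 25.9%, and the 6 ensheathing glia genes at 9.01%, 8.85% and 15.7%. Higher shares were found for the 22 other macrophage genes (32.0%, 23.6% and 39.5%) and the 18 complement genes (37.9%, 55.9% and 75.3%). The 6 monocyte and macrophage activation genes were at 78.8%, 193% and 138%, and the 4 T cell markers at 116%, 168% and 115%. C1qc kept the largest share in WT and Het, 27.8% and 31.0%, and Cx3cr1 in KO, 41.0%. A level below 1 in 5 of that in MOE was found for 4 members in WT (11.6% of genes), 5 in Het (11.2%) and 4 in KO (6.72%).

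Each deposited mean could be resolved into the reads of its 2 libraries, though not which replicate each was. C1qa rested on 35 and 10 reads in WT, 2 and 21 for Het, and 4 and 10 for KO, and C1qb on 13 and 2, 7 and 14, and 5 and 19. Csf1r had 40 and 49 reads in WT, 10 and 28 for Het, and 80 and 142 for KO. Cx3cr1 had 5 and 56, 7 and 20, and 33 and 85. For C1qa the level of the libraries within WT was 28.3 and 5.05, so the spread inside 1 genotype exceeded the distance between the deposited means of WT and KO.

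Csf1r and Cx3cr1 were highest in KO neurons, at 3.28 and 3.07 times the WT mean, and C1qc was at 2.68 times, a count of 3 of 6 members at least 2-fold above WT beside 19.2% of all genes. C1qa, at 0.353 times, was the one member at least 2-fold below (3.07% of genes). In Het, C1qc and C1qb were at 3.65 and 2.66 times WT, 2 of 6 members at least 2-fold above beside 8.47% of genes, and none was 2-fold below (3.06%). Both KO libraries exceeded both WT libraries for Csf1r and C1qc (11.4% of genes), and both Het libraries did for C1qb and C1qc (6.44%). No member had both KO or both Het libraries below both WT libraries (14.8% and 7.59% of genes). For Cx3cr1 the lower KO library, at 7.86, was just under the higher WT library, at 7.89. No test was run on the recovered libraries, in which kit and genotype cannot be told apart between WT and KO.

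Library kit and genotype cannot be told apart in these neurons, as ScriptSeq (200 ng of RNA) served for both WT libraries, NuGEN (100 ng) for both KO libraries, and each kit for 1 Het library. The summed levels of other lists, KO against WT neurons, went both ways. They were 88.7 against 11.0 for horizontal basal cells, 52.1 against 20.9 for endothelium, 93.0 against 51.4 for neutrophils and 40.1 against 16.3 for T cells. For the other macrophage genes the sums were 264 against 267, for dendritic cell and antigen presentation genes 120.2 against 136, for ensheathing glia 63.4 against 73.2 and for mature neuron markers 66389 against 96038. Their part in the member values was not tested. After quantile normalization the median log2 ratio of the members, KO over WT, was 0.11 in place of 1.03, beside -0.04 and -0.13 for all genes.

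**Figure D4:**
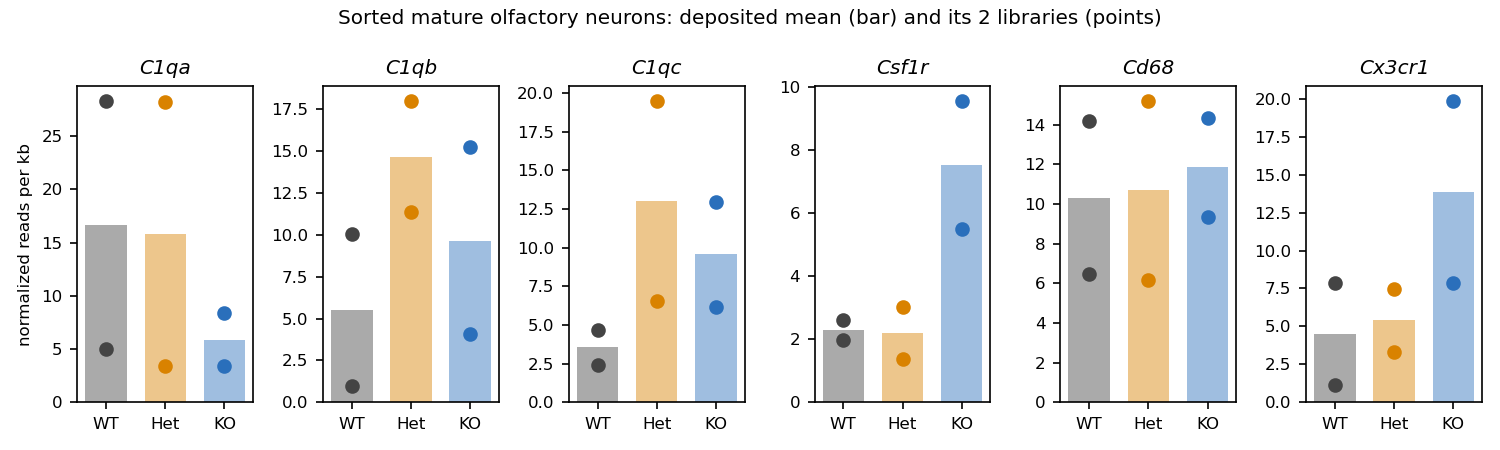
Levels of the 6 listed members in sorted mature olfactory sensory neurons (normalized reads per kb, linear axis from 0). Bars are the deposited means, points the 2 libraries recovered from each mean, in WT (grey), Het (orange) and KO (blue). The points of C1qa in WT, at 28.3 and 5.05, lie further apart than the bars of WT and KO, whereas the KO points of Csf1r, at 5.50 and 9.57, are above both WT points.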

How the data were processed

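RNA-seq of 12 of the 33 samples was used, 6 MOE libraries and 6 mOSN libraries, and the other 21 samples (DNA, histone mark and DNase assays) were not analysed here. The authors deposited RPKM values (reads per kilobase and depth). The submitters' processing notes name Bowtie2 2.1, STAR 2.3.0, Picard 1.64, featureCounts and DESeq, and the builds mm9 and NCBIM37, without order or formula. In the MOE table, all 14613 genes gave whole reads in all 6 libraries (100%, relative tolerance 1e-05) once divided by a size factor per library (0.786 to 1.34) and a whole-number length per gene. That length exceeded the gene's span on the genome for 1517 of 13564 genes (11.2%), so exons of several transcripts may have been added up and levels of different genes are only roughly comparable. Each deposited mOSN value was the mean of 2 such libraries, and 98.4% to 99.0% of the low-valued genes tested had 1 whole-read solution. Of its 14751 rows, 7 without values were left out. Neither table listed a 0.

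The MOE comparisons used limma 3.58.1 in R 4.3.3 on log2(value + 0.5), for 14602 genes at 0.5 or more in at least 2 libraries, with empirical Bayes moderation along a mean-variance trend. Tests were two-sided at an adjusted p of 0.05 (Benjamini-Hochberg over all of them). Fold changes of low genes are understated on this scale. Genotype or treatment was a block (2 residual degrees of freedom, 1 for the odor effect in KO). The fits were also run on simulated data with the same added spread for every gene, which does not show what they could detect for these members. Alternatives were other pseudocounts, filters, scalings and trends, libraries left out, and limma's voom on the recovered reads with a TMM scaling written for this work. No test was run on mOSN, which hold 1 pooled value per genotype.

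The members and gene lists were chosen with earlier results of these data known. Genes named are the 8 members, the 2 genes of a list with the smallest unadjusted p in the comparison described, 9 fixed partners (Csf1, Il34, Cx3cl1, Trem2, Spi1, C3, C4b, C1ra and C1s), the 8 genes of most similar profile, and Dnmt3a. Omp, Acp5 and the markers that were not listed were named outside that rule, after their values were seen. Spi1 is listed under its older symbol, Sfpi1. Intervals cover counting error only. Promoter sequences are from RefSeq (GRCm38.p6), where 5 of the 8 members were matched by symbol and used. Coordinates were not joined to the files' build.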

Additional observations from a re-analysis of the deposited data

Results flagged for a closer look

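For 5 members every genotype pair moved the same way in WT and Het and the opposite way in KO, with odor higher than water in WT and Het and lower in KO. The odor effect in KO minus that common to WT and Het was -0.52 (log2) for C1qa, -0.62 for C1qc, -1.88 for Csf1r, -1.74 for Cd68 and -0.86 for Tyrobp. The difference was tested with limma for each, and none passed (adjusted p = 0.789, 0.846, 0.616, 0.434 and 0.723). Each pair is 1 library against 1, and 14.9% of all genes showed the same directions.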

How the results depend on the processing

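No member passed limma's test under any alternative that has a test, in any of the 4 MOE comparisons (smallest adjusted p = 0.363). For odor against water the median over the members, 0.01, was -0.012 with median-ratio scaling and -0.18 to 0.30 when a genotype pair was left out. Ptprc was 0.0078 with quantile normalization and Cx3cr1 0.056 with voom. With a pair left out, values ran from -0.0030 to 0.31 for C1qc, -0.51 to 0.69 for Csf1r, -0.69 to 0.29 for Cd68, -0.33 to 0.14 for Tyrobp, -0.24 to 0.14 for Ptprc and -0.41 to 0.16 for Cx3cr1.

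For KO against WT the median of 0.13 was -0.21 in the odor libraries alone and -0.14 to 0.74 with 1 library left out (-0.11 without WT water, -0.14 without KO water, 0.74 without KO odor). Csf1r was 0.48 and Cd68 0.62 with water alone, and C1qa was -0.092 and Ptprc -0.32 with odor alone. With 1 library left out, C1qa ran from -0.055 to 0.46, C1qb from 0.27 to 1.22, C1qc from 0.41 to 1.02, Csf1r from -1.13 to 0.74, Cd68 from -1.01 to 0.73, Tyrobp from -0.97 to -0.10, Ptprc from -0.23 to 0.35 and Cx3cr1 from 0.41 to 1.15.

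For Het against WT the median of 0.85 was 0.50 to 1.35 with 1 library left out, and Csf1r ran from -0.18 to 1.54 and Ptprc from -0.25 to 0.34. Ptprc was -0.023 after quantile normalization and -0.16 in the odor libraries alone. The odor effect in KO had a median of -0.59, and of -0.71 after quantile normalization, -0.77 against WT alone and -0.70 against Het alone. Against WT alone Cx3cr1 was 0.34, and against Het alone C1qb was 0.0049.

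In mOSN, quantile normalization gave a KO median of 0.11 in place of 1.03 and a Het median of -0.13 in place of 0.14. It put C1qb at -0.12 and Cd68 at -0.40 in KO, and Cd68 at -0.15 and Cx3cr1 at -0.12 in Het. The cause of these shifts was not tested. Setting WT mOSN beside MOE with odor in place of water, or aligning the tables by their median gene, both added after seeing the data, gave 10.96% and 13.8% (13.8% as reported). Of the values of single members under the alternatives, 28 reversed, 16 untested ones moved by more than their spread or counting error, and 436 did neither; the tested ones among the 436 kept their direction and their side of the threshold, though not always their size.

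No paired analysis was possible because the replicate numbers of the mOSN libraries have no columns of their own in the deposited table, and MOE has 1 library per group. With as few as 2 to 35 reads per library, C1qa, C1qb and C1qc in sorted neurons are limited by depth.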
